A study of Arabidopsis thaliana with 16 samples.

Results

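In seedlings of Arabidopsis thaliana kept at 32 °C, 67 of 32833 loci were more abundant in roots and less abundant in shoots than in seedlings kept at 22 °C. They were selected on their normalised read counts. The mean plus 1 of the 32 °C roots was at least 1.5 times that of the 22 °C roots, and the mean plus 1 of the 32 °C shoots was at most 2/3 of that of the 22 °C shoots. The means of the 32 °C roots and of the 22 °C shoots both had to reach 100, and chloroplast and mitochondrial loci were left out. Polyadenylated RNA came from roots and shoots of wild-type seedlings aged 10 days, which had spent 4 days at 22 °C and then 6 days in one of 3 regimes. Under the gradient regime the shoot stayed at 32 °C and the root grew into increasingly cool medium. In the other 2 regimes the whole seedling was at 32 °C or at 22 °C. No allele, line or chemical agent distinguished the groups. The labels do not say whether replicates were separate plates or pools of seedlings, so p-values here reflect no more than the library-to-library spread, possibly of technical origin.

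Plants sense warmth in each organ, and the photoreceptors and clock-linked proteins that carry temperature information in leaves are also made in roots. Warm shoots typically elongate, raise their leaves and shift hormone signalling, above all auxin, brassinosteroid and ethylene. Roots answer warmth with their own changes of elongation, wall loosening and defence, so that one gene can be regulated differently above and below ground. A whole organ mixes many cell types, and in such bulk RNA a smaller number of cells of a type cannot be told apart from less RNA per cell.

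The 16 deposited columns held 14 distinct libraries. The 2 columns of 22 °C roots were identical over the whole table, and so were 2 of the 3 columns of gradient shoots, and each such pair was counted as 1 library. Roots were thus represented by 3 gradient libraries, 3 libraries at 32 °C and 1 at 22 °C, and shoots by 2, 3 and 2. Every statement about the root at 22 °C rests on that 1 library, whose spread was assumed to equal that of the other root groups. Column totals lay between 33075029 and 34769425 normalised counts, and the number of reads behind them is unknown. The labelled organs carried their markers, apart from the root marker SCR. The summed level of 11 green tissue genes was 1442 to 6425 in gradient roots, 1743 to 3882 in 32 °C roots and 4026 in the 22 °C root library, at most 0.311% of the mean in shoots of the same regime. No member had a 32 °C root level below 4.61% of its 32 °C shoot level. Of 9 root markers, none of them at 0 in any library, 8 summed to 29504 to 35759 in gradient roots, 7939 to 13041 in 32 °C roots and 32018 in the 22 °C root library. In shoots these 8 summed to 2604 to 2859 in the gradient, 3082 to 3241 at 32 °C and 2367 to 2844 at 22 °C. The remaining one, the ER body glucosidase BGLU23, averaged 703799, 495578 and 355822 in gradient, 32 °C and 22 °C roots and 250166, 270119 and 58459 in the matching shoots. The sum of the 8 was thus lowest in the 32 °C roots, where the members were high. With BGLU23 included, the 9 summed lowest in the 22 °C root library (387840). Their mean sums were 506107 in 32 °C roots and 736756 in gradient roots. In gradient and 22 °C roots most of the sum of the 8 came from the aquaporin TIP2;3 and the endodermal protein CASP1. TIP2;3 averaged 16247, 1663 and 15394 in gradient, 32 °C and 22 °C roots, and CASP1 8453, 3079 and 11516. SCR and SHR, transcription factors of root patterning, ran the other way, with 1367, 1923 and 1417 for SCR and 1092, 1694 and 997 for SHR. In the matching shoots SCR averaged 1596.5, 1654 and 1565.5, above the roots in the gradient and at 22 °C. It was the largest part of the sum of the 8 in shoots. The part of such marker changes in the members' root values was not tested.

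The combination was rare in the table. Of 14621 loci with both minimum levels, 4393 met the root part of the rule, 1223 (8.36%) the shoot part, and 67, or 0.458%, both. Only 1.53% of the loci higher in 32 °C roots were also lower in 32 °C shoots, and these made up 5.48% of the loci lower in 32 °C shoots. The mirror pattern, lower in roots and higher in shoots at 32 °C, was met by 406 loci under matching minimum levels. These counts describe the selection, and no test was made of the contrast that chose the members. The median locus was itself higher at 32 °C than at 22 °C, by 0.24 (log2) in roots and 0.32 in shoots. Trimmed-mean (TMM) scaling within each organ brought these medians to -0.06 and -0.13. After it 106 loci met the rule and 39 of the 67 were among them. The 28 that left the set did so because their root ratio dropped under 1.5, and PHYA, FKF1, CLV1, FER, CRK28 and TCH4 were among these.

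**Figure D1:**
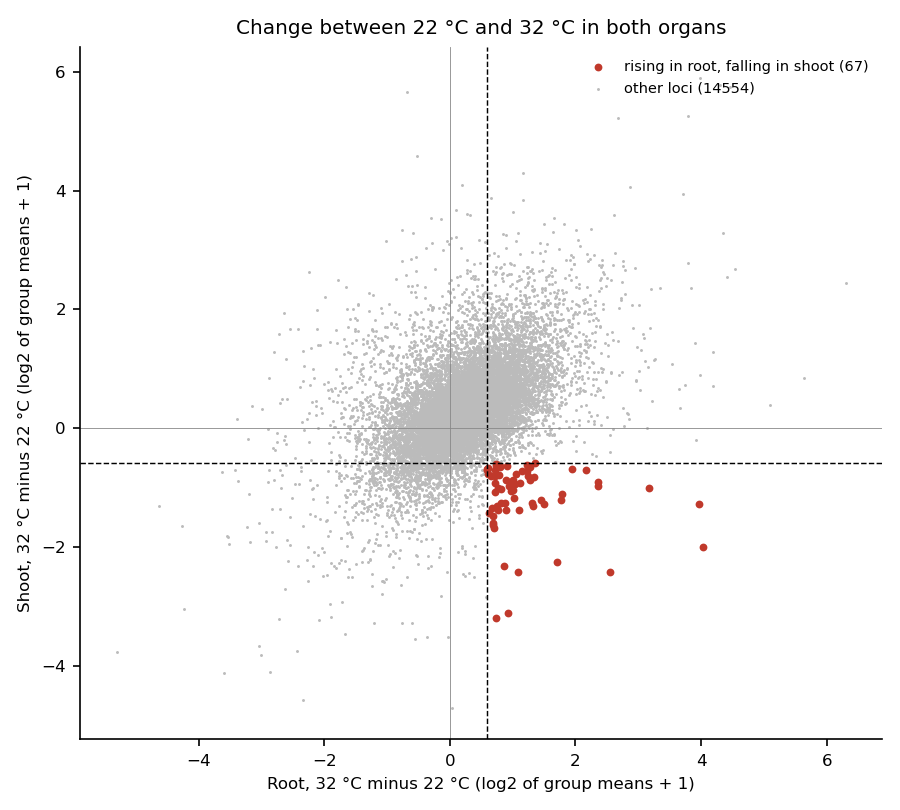
Each point is one of the 14621 loci with both minimum levels, with the 32 °C minus 22 °C difference in roots on the horizontal axis and in shoots on the vertical axis (log2 of group means plus 1). Dashed lines mark the 1.5-fold limits, and the 67 red points are the loci below and to the right of both.

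Root means of the members were up to 16.3 times higher at 32 °C than at 22 °C, with a median of 1.94, and shoot means were up to 9.11 times lower, with a median of 1.97. At least a 2-fold difference in both organs was seen for 15 members. In 65 members each of the 3 root libraries at 32 °C lay above the 22 °C root library. In 64 each of the 3 shoot libraries at 32 °C lay below both 22 °C shoot libraries. The rule used these libraries, so such an order is largely set by the choice, and its share over all loci was not counted. One member outside this order was AT3G02840, an ARM repeat protein, whose 22 °C shoot libraries read 220 and 6. The only 22 °C root library, which enters each root ratio, could not be left out. Leaving out any 1 of the other libraries the rule used gave 68 to 80 loci. Under each such omission 39 of the 67 met the rule. Without the second 22 °C shoot library, 71 loci met it, 56 of them members. The limits ran through a continuum of values. Just inside stood the inositol phosphatase gene 5PTase12 with a root ratio of 1.501, MLO12 with a shoot ratio of 1.502 (22 °C over 32 °C) and AT1G60010 with a root ratio of 1.509. Just outside stood LARP1a and AFH1, with shoot ratios of 1.499 and 1.498, and AT2G31010, with a root ratio of 1.496.

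The gradient regime was not used by the rule, but the 22 °C and 32 °C libraries it is compared with were. In gradient shoots, also at 32 °C, 51 members were lower than at 22 °C (11.2% of loci) and 16 were not called. In gradient roots 43 members were lower than in 32 °C roots (30.2% of loci) and 24 were not called. Tests used limma on log2(value + 1), with p-values adjusted over all loci tested in the organ and a call at an adjusted p below 0.05. Because members were chosen for high root and low shoot values at 32 °C and the reverse at 22 °C, part of any difference from those same libraries is set by the choice. Counts of calls are therefore given beside the share of all loci called. For counts at an unadjusted p the share of all loci was not counted.

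In roots, 43 members were lower in the gradient than at 32 °C and 0 were higher, where 30.2% of 21757 loci were lower and 12.6% higher. At an unadjusted p below 0.05, 44 members were lower and 1 was higher, a share not counted for all loci. The members' median difference was -0.58 (log2), against -0.20 for all loci. Of the 9 root markers, 5 were higher in gradient than in 32 °C roots and 2 lower. Against 22 °C, 19 members were higher in the gradient roots and 0 lower, where 11.1% of loci were higher and 5.1% lower. The corresponding unadjusted counts were 28 and 1, and the median was 0.46 for members and 0.10 for all loci. Combining both tests, 36 members were below the 32 °C level and not called against 22 °C, 12 were above 22 °C and not called against 32 °C, and 7 were called in both. No call was made for the other 12. The shares of all loci in these joint classes were not counted. TMM scaling left 23 members lower and 2 higher than at 32 °C (17.0% and 19.6% of loci), and 13 higher and 1 lower than at 22 °C (8.08% and 7.47%). Calls also depended on single libraries. Without the second gradient root library, 25 members were lower than at 32 °C (17.4% of loci) and 7 higher than at 22 °C (4.59%). Without the first 32 °C root library 10 were higher than at 22 °C (6.37%). Without the second 28 were lower than at 32 °C (18.1%). The shares of all loci called thus fell too.

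In shoots, 51 members were lower in the gradient than at 22 °C and 0 were higher, where 11.2% of 21837 loci were lower and 52.6% higher. None was higher at an unadjusted p below 0.05 either. The members' median was -0.80 (log2), against 0.48 for all loci. Against 32 °C no member was called in limma, where 0.124% of loci were called higher and 0.266% lower. At an unadjusted p below 0.05, 20 members were higher and 2 lower than at 32 °C, and the median difference was 0.23, against 0.01 for all loci. The share of all loci at that unadjusted p was not counted, and the rule chose members for low 32 °C shoot values. With TMM scaling 61 members were lower than at 22 °C (27.5% of loci, with 28.9% higher), and 1 was higher than at 32 °C (0.11%). Counting the identical gradient shoot columns as 2 libraries gave 12 members higher than at 32 °C (2.18% of loci).

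Placed on the log2 path from the 22 °C mean (0%) to the 32 °C mean (100%), the gradient mean lay at a median of 44.1% in roots and 81.8% in shoots. In roots 31 members were nearer to the 32 °C mean, 10 exceeded it and 11 lay below the 22 °C mean. In shoots 53 were nearer to the 32 °C mean, 18 were below it and 1, PHI-1, was above the 22 °C mean. Both ends of this path are means that chose the members, and such places were not counted over all loci. Few loci of any kind were called between gradient and 32 °C shoots (0.124% higher and 0.266% lower). The gradient minus 32 °C difference was itself compared between organs, as an interaction term in a joint fit of roots and shoots. It was lower in roots than in shoots for 32 members and higher for 0, where 19.2% of 22999 loci were lower and 8.04% higher. At an unadjusted p below 0.05 these counts were 45 and 0, with no share of all loci counted. The medians were -0.81 for members and -0.19 for all loci. TMM scaling gave 27 members (10.9% of loci lower and 12.4% higher). PHYA (-0.98 ± 0.21, adjusted p = 0.00603), ETR2 (-1.29 ± 0.24, adjusted p = 0.00313) and CRK28 (-1.25 ± 0.18, adjusted p = 0.00123) were among the 32.

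**Figure D2:**
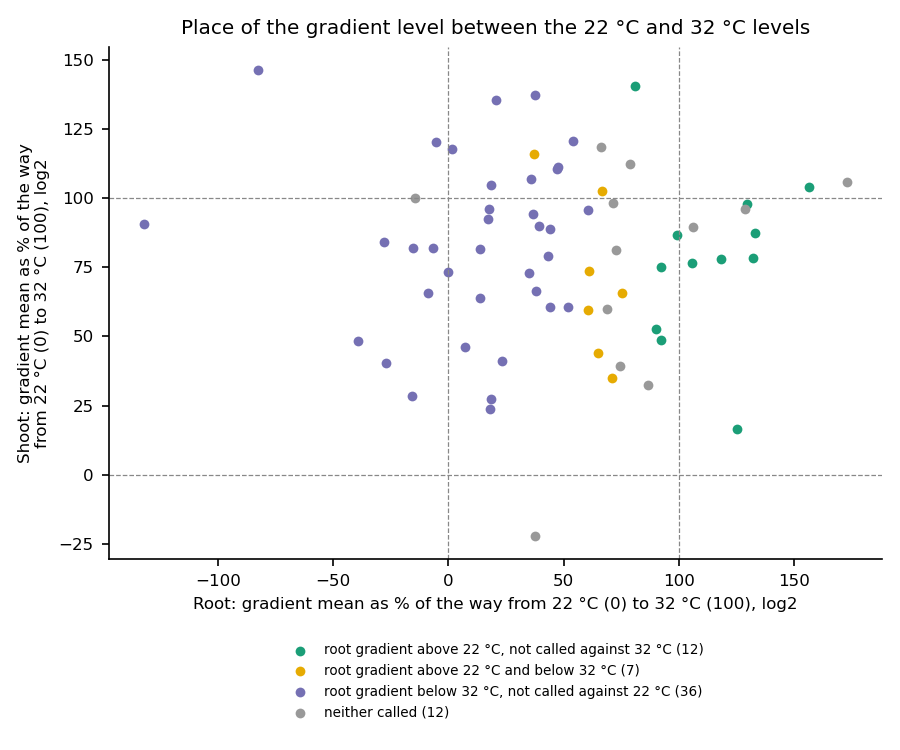
Each point is a member, placed by its gradient mean as a percentage of the log2 distance from the 22 °C to the 32 °C mean in roots (horizontal) and shoots (vertical), with colours for the root calls. The 36 members lower than 32 °C and not called against 22 °C sit towards the left, and on the shoot axis all of the 67 but PHI-1 lie past 0% towards 32 °C.

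**Figure D3:**
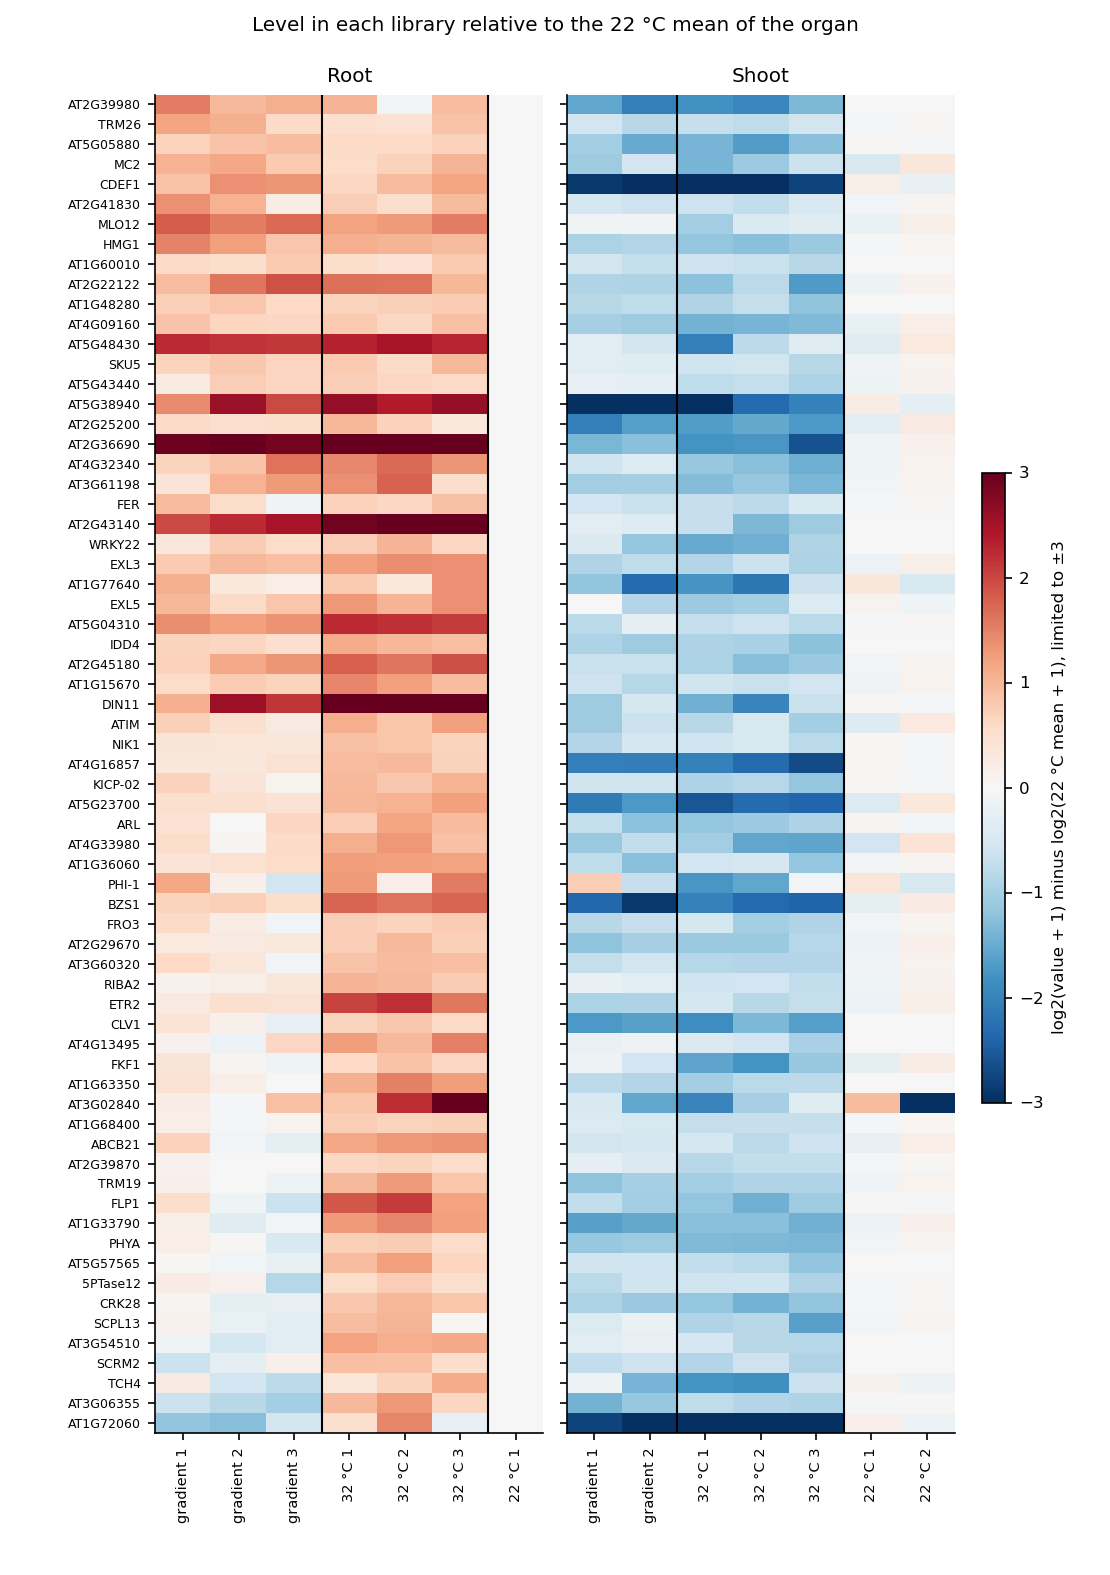
Rows are the 67 members, ordered by the place of the gradient roots, and columns are the 14 distinct libraries, with colour showing log2(value + 1) minus log2 of the 22 °C mean plus 1 in the same organ, limited to ±3. Red marks levels above and blue below the 22 °C mean, and the blue of the shoots at 32 °C extends through the gradient shoots.

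The members are described next by role, in groups drawn up after their values had been seen. Light and clock genes included a photoreceptor. PHYA, the red and far-red receptor that seedlings degrade in light, read 4224, 3803 and 2710 in gradient roots, 6068, 6223 and 5419 in 32 °C roots and 3694 in the 22 °C root library. In shoots it read 7322 and 7585 in the gradient, 6377, 6340 and 6206 at 32 °C, and 15013 and 17002 at 22 °C. No 32 °C library overlapped the 22 °C range in either organ, and the gradient roots enclosed the 22 °C root value. The gradient roots were lower than the 32 °C roots by a log2 difference of -0.74 ± 0.17 (SE, limma adjusted p = 0.0102), and the gradient shoots were lower than the 22 °C shoots by -1.10 ± 0.08 (adjusted p = 2.23e-05). The other 4 phytochrome genes were outside the set. PHYB, PHYC and PHYD had root ratios (32 °C over 22 °C) of 1.81, 2.14 and 1.93 but shoot ratios of 1.26, 1.63 and 1.04, and PHYE had 1.45 and 0.97.

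FKF1, a blue light receptor and F-box protein of day-length sensing, was the only member among 20 clock genes listed for comparison. Its root values were 297, 241 and 208 in the gradient, 345, 411 and 349 at 32 °C and 228 at 22 °C. Its shoot values were 145 and 107 in the gradient, 53, 46 and 73 at 32 °C, and 133 and 189 at 22 °C. The gradient shoots overlapped the 22 °C range and lay above each 32 °C library, although their difference from 32 °C was not called (1.13 ± 0.27, adjusted p = 0.123). In roots the gradient was lower than 32 °C (-0.58 ± 0.16, adjusted p = 0.0238). That call was lost without the first or second 32 °C root library or the second gradient root library (highest adjusted p = 0.0867) and with TMM scaling. Of its relatives, ZTL had ratios of 0.91 in roots and 0.75 in shoots, and LKP2 0.88 and 0.69. Across the 20 clock genes, 4 had root ratios of at least 1.5 and 6 of at most 2/3, and in shoots these counts were 5 and 6.

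BZS1, a B-box zinc finger protein that promotes light-dependent development and dampens brassinosteroid responses, read 196, 201 and 177 in gradient roots, 415, 380 and 418 in 32 °C roots and 123 in the 22 °C root library. Shoot values were 60 and 41 in the gradient, 76, 61 and 58 at 32 °C, and 255 and 368 at 22 °C. The order of the organs by mean turned over, with roots above shoots in both warm regimes and below them at 22 °C. Gradient roots were lower than 32 °C roots (-1.08 ± 0.13, adjusted p = 0.00112), and gradient shoots lower than 22 °C shoots (-2.60 ± 0.27, adjusted p = 0.00013). An annotated gene overlaps BZS1 on the other strand, and no source used here states whether the authors' counting used strand. The same holds for FKF1 and for 17 other members.

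**Figure D4:**
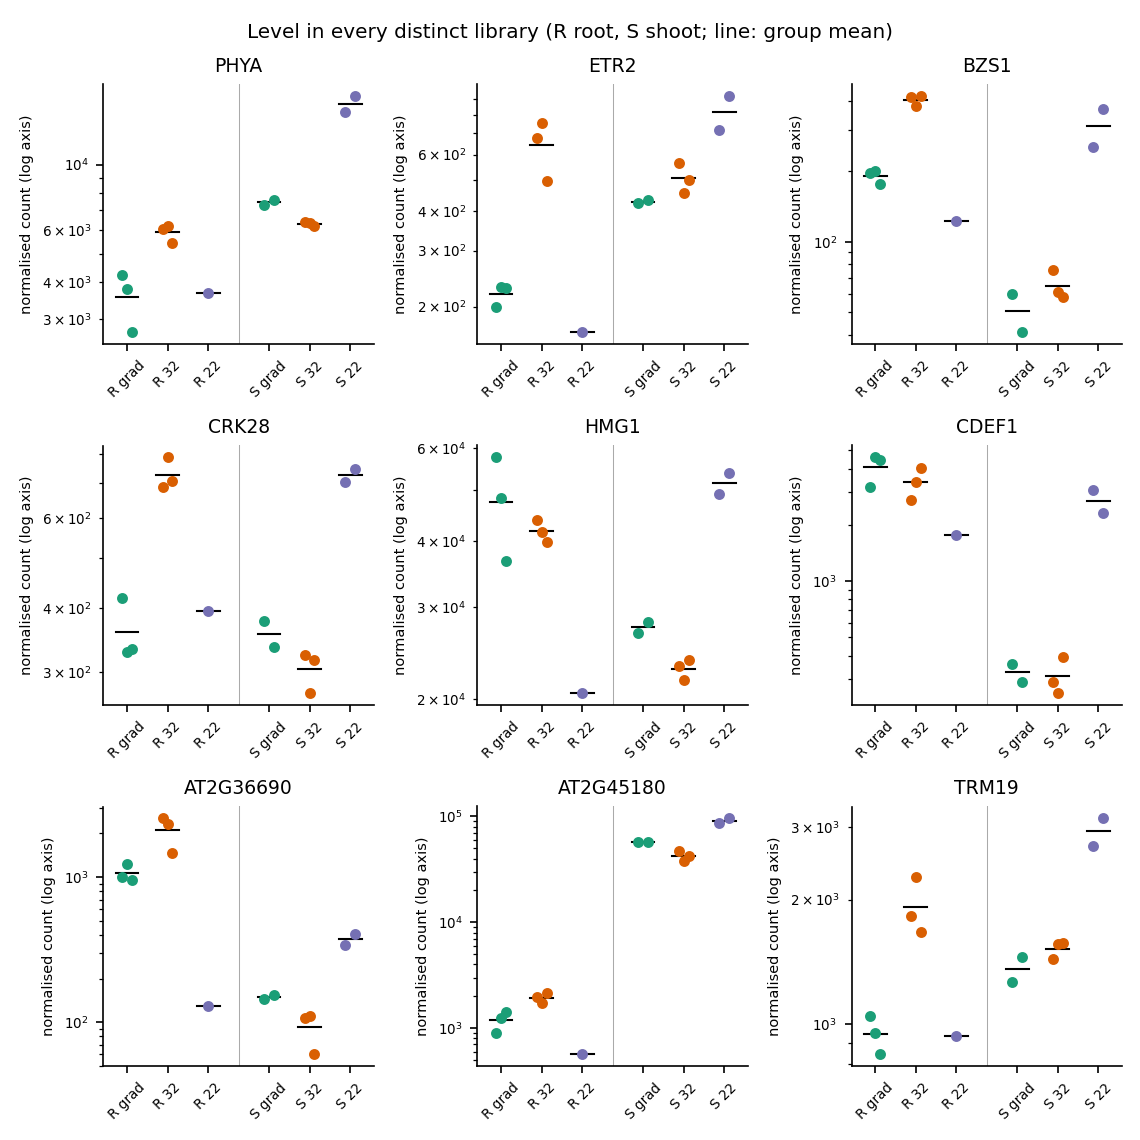
Points are the normalised counts of 9 members in each distinct library (log axis, a separate range for each panel), with root groups left and shoot groups right and a line at each group mean. In each panel the 32 °C roots lie above the 22 °C root library and the shoots of both warm regimes lie below the 22 °C shoots.

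Hormone-related members covered perception and transport. ETR2, an ethylene receptor that represses the response until ethylene binds, read 200, 231 and 228 in gradient roots, 675, 756 and 497 in 32 °C roots and 166 in the 22 °C root library. Gradient shoots held 423 and 432, 32 °C shoots 563, 456 and 500, and 22 °C shoots 718 and 915. Its root ratio of 32 °C over 22 °C was 3.85, and the gradient roots lay below each 32 °C root library (-1.53 ± 0.17, adjusted p = 0.000992). Shoots in the gradient were lower than at 22 °C (-0.92 ± 0.15, adjusted p = 0.00107). Among the other 4 receptors, EIN4 was higher at 32 °C in both organs (ratios 2.70 and 1.69), ERS2 had ratios of 0.93 in roots and 0.45 in shoots, and ERS1 and ETR1 passed neither limit.

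ABCB21, a transporter of auxin, read 715, 418 and 369 in gradient roots, 988, 1098 and 1131 in 32 °C roots and 444 in the 22 °C root library. The gradient roots were lower than the 32 °C roots (-1.16 ± 0.23, adjusted p = 0.00627) and spanned the 22 °C value. Its shoots averaged 1394 in the gradient, 1284 at 32 °C and 2007 at 22 °C. ARL, which promotes cell expansion, was 1.97 times higher in 32 °C roots and 2.07 times lower in 32 °C shoots than at 22 °C.

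Receptor kinases formed a group of 5. CLV1, which perceives a peptide that limits stem cell number in the shoot apex, had the lowest shoot values relative to 22 °C of this group. It read 1727 and 1855 in gradient shoots, 1570, 2267 and 1829 in 32 °C shoots, and 5728 and 5744 in 22 °C shoots, with no overlap between warm and 22 °C libraries (gradient against 22 °C, -1.68 ± 0.15, adjusted p = 6.42e-05). Its roots held 2280, 1929 and 1456 in the gradient, 2734, 3010 and 2623 at 32 °C and 1728 at 22 °C. The lower level of the gradient roots (-0.58 ± 0.16, adjusted p = 0.0225) was not called without the first or second 32 °C root library or the second gradient root library (highest adjusted p = 0.0821), nor with TMM scaling.

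FER, the receptor of growth-restraining RALF peptides, was abundant in both organs. Gradient roots read 12157, 9171 and 5808, 32 °C roots 10205, 9684 and 11503, and the 22 °C root library 6294, so that the gradient roots spread across the whole range. Gradient shoots read 9646 and 9023, 32 °C shoots 8924, 8325 and 10515, and 22 °C shoots 14118 and 14650 (gradient against 22 °C, -0.62 ± 0.11, adjusted p = 0.00184). CRK28, a cysteine-rich receptor-like kinase, read 418, 328 and 333 in gradient roots, 689, 787 and 709 in 32 °C roots and 395 in the 22 °C root library. Its gradient roots were lower than the 32 °C roots (-1.02 ± 0.13, adjusted p = 0.00153) and enclosed the 22 °C value. In shoots CRK28 averaged 357 in the gradient, 305 at 32 °C and 726 at 22 °C. An annotated neighbour of the same kind overlaps it on the same strand, so reads could be shared. AT1G68400, a leucine-rich repeat kinase, was likewise lower in gradient than in 32 °C roots (-0.62 ± 0.11, adjusted p = 0.00398). NIK1, a kinase of antiviral immunity, had root means of 1324 in the gradient, 1769 at 32 °C and 1022 at 22 °C, and shoot means of 1028, 1077 and 1666.

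Among transcription factors, AT2G43140, a bHLH protein, stood out by its root ratio of 9.01. Root values were 129, 155 and 182 in the gradient, 245, 298 and 346 at 32 °C and 32 at 22 °C, with no overlap among the regimes. Gradient roots were higher than the 22 °C root library (2.23 ± 0.27, adjusted p = 0.0026). Its shoots held 187 and 179 in the gradient, 145, 91 and 111 at 32 °C, and 232 and 237 at 22 °C. SCRM2, a bHLH partner of stomatal lineage regulators that also acts in cold responses, was higher in shoots in each regime by mean, with 64.3 in roots and 1310 in shoots in the gradient, 130 and 1201 at 32 °C, and 75.0 and 2081 at 22 °C. IDD4, a zinc finger protein, averaged 213, 280 and 139 in gradient, 32 °C and 22 °C roots and 1616, 1567 and 3212 in the matching shoots. WRKY22, a factor of immune signalling, averaged 269, 321 and 183 in those roots and 1122, 791 and 1898 in those shoots. AT1G36060 and AT1G77640, annotated as integrase-type DNA-binding proteins, had root ratios of 2.35 and 1.85 and were 1.65 and 2.60 times lower in 32 °C than in 22 °C shoots.

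Wall and growth genes included 3 of the 8 EXORDIUM family genes, which encode secreted proteins linked to brassinosteroid-dependent growth. EXL3 read 1787, 2024 and 1947 in gradient roots, 2440, 2733 and 2695 in 32 °C roots and 1036 in the 22 °C root library, 3 levels that did not overlap (gradient against 22 °C, 0.89 ± 0.14, adjusted p = 0.00711). EXL3 shoots held 3178 and 3504 in the gradient, 3218, 3825 and 3124 at 32 °C, and 5244 and 6689 at 22 °C. EXL5 averaged 424, 573 and 242 in gradient, 32 °C and 22 °C roots and 3145, 2303 and 4026 in the matching shoots. PHI-1 was variable, with 140, 69 and 41 in gradient roots, 151, 71 and 186 in 32 °C roots and 62 in the 22 °C root library. PHI-1 shoots read 3206 and 1184 in the gradient, 571, 643 and 1815 at 32 °C, and 2439 and 1376 at 22 °C, so the 32 °C and 22 °C shoots overlapped. Other genes of the family differed from this pattern. EXL2 had ratios of 0.26 in roots and 0.29 in shoots, EXL4 0.37 and 0.67, and EXO 0.96 and 0.84.

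CDEF1, a cutinase known from pollen and emerging lateral roots, was 8.63 times lower in 32 °C than in 22 °C shoots. It read 360 and 290 in gradient shoots, 290, 251 and 391 in 32 °C shoots, and 3058 and 2317 in 22 °C shoots (gradient against 22 °C, -3.04 ± 0.23, adjusted p = 2.69e-05). Its roots held 3205, 4593 and 4419 in the gradient, 2701, 3409 and 4002 at 32 °C and 1768 at 22 °C. Gradient and 32 °C roots overlapped and both exceeded the 22 °C library (gradient against 22 °C, 1.19 ± 0.26, adjusted p = 0.0224), a call lost without the second gradient root library (1.09, adjusted p = 0.0743). AT5G04310, a pectin lyase-like protein, read 200, 177 and 192 in gradient roots, 356, 346 and 324 in 32 °C roots and 75 in the 22 °C root library (gradient against 22 °C, 1.33 ± 0.18, adjusted p = 0.00408). TCH4, a xyloglucan-modifying enzyme induced by touch, averaged 354, 733 and 435 in gradient, 32 °C and 22 °C roots and 5251, 3283 and 8170 in the matching shoots. SKU5, a cupredoxin protein of directional root growth, averaged 5615, 5936 and 3427 in those roots and 5999, 4833 and 7625 in those shoots. AT5G38940, a cupin family protein, was 5.88 times higher in 32 °C roots and 5.34 times lower in 32 °C shoots than at 22 °C. It read 60, 137 and 90 in gradient roots, 141, 119 and 143 in 32 °C roots and 22 in the 22 °C root library (gradient against 22 °C, 1.99 ± 0.41, adjusted p = 0.0175). Gradient shoots held 90 and 89, 32 °C shoots 112, 187 and 233, and 22 °C shoots 1116 and 787 (gradient against 22 °C, -3.37 ± 0.33, adjusted p = 8.7e-05). A neighbouring gene carries the same product name, so reads could be shared. The same holds for DIN11, AT1G63350, AT5G43440 and AT5G05880, described below.

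Metabolic members were led in abundance by HMG1, the HMG-CoA reductase that controls entry into sterol and other isoprenoid synthesis. It read 57671, 48245 and 36609 in gradient roots, 43851, 41521 and 39758 in 32 °C roots and 20534 in the 22 °C root library. Gradient shoots held 26728 and 28058, 32 °C shoots 23193, 21727 and 23739, and 22 °C shoots 49200 and 53877. Warm roots of both regimes thus exceeded the 22 °C root library and overlapped each other, and warm shoots lay below both 22 °C libraries. Gradient shoots were lower than 22 °C shoots (-0.91 ± 0.09, adjusted p = 7.99e-05). Gradient roots were higher than the 22 °C root library (1.19 ± 0.29, adjusted p = 0.0292), which was not called without the second gradient root library (1.16, adjusted p = 0.0979) or the first 32 °C root library (adjusted p = 0.0693), nor with TMM scaling (adjusted p = 0.0514). The second reductase gene, HMG2, had ratios of 1.11 in roots and 0.91 in shoots.

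AT2G36690, an oxygenase of the 2-oxoglutarate and iron type, had the highest root ratio, 16.3. Root values were 995, 1236 and 950 in the gradient, 2543, 2341 and 1456 at 32 °C and 129 at 22 °C, without overlap. Shoot values were 144 and 155 in the gradient, 107, 111 and 60 at 32 °C, and 339 and 408 at 22 °C. Gradient roots were higher than the 22 °C root library (3.02 ± 0.30, adjusted p = 0.00127) and lower than the 32 °C roots (-0.96 ± 0.21, adjusted p = 0.0094). DIN11, an oxygenase of the same type that is induced in darkness, read 22, 64 and 48 in gradient roots, 121, 295 and 96 in 32 °C roots and 10 in the 22 °C root library. Another such gene, AT5G43440, had a root ratio of 1.57. RIBA2, an enzyme of riboflavin synthesis, was lower in gradient than in 32 °C roots (-0.70 ± 0.12, adjusted p = 0.0032), with root means of 704 in the gradient, 1148 at 32 °C and 608 at 22 °C. FRO3, a ferric reductase, averaged 2568, 3527 and 2136 in gradient, 32 °C and 22 °C roots and 2252, 2183 and 3819 in the matching shoots. AT5G05880, a UDP-glycosyltransferase, averaged 684, 593 and 386 in those roots and 93.0, 82.0 and 223 in those shoots.

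Defence-related members included MLO12, one of the membrane proteins that powdery mildew fungi depend on. Root values were 7318, 5982 and 6663 in the gradient, 4781, 4969 and 6021 at 32 °C and 2063 at 22 °C (gradient against 22 °C, 1.68 ± 0.19, adjusted p = 0.00172). Gradient shoots held 606 and 608, 32 °C shoots 314, 477 and 505, and 22 °C shoots 567 and 732, so the gradient shoots lay within the 22 °C range. AT5G48430, an aspartyl protease, read 1825, 1720 and 1680 in gradient roots, 1919, 2142 and 1892 in 32 °C roots and 385 in the 22 °C root library (gradient against 22 °C, 2.17 ± 0.14, adjusted p = 0.000232). Its shoot values were low and overlapping, from 73 to 84 in the gradient, 25 to 83 at 32 °C and 83 to 131 at 22 °C. AT1G33790, a jacalin lectin, read 324, 223 and 271 in gradient roots, 700, 788 and 668 in 32 °C roots and 286 in the 22 °C root library (gradient against 32 °C, -1.41 ± 0.16, adjusted p = 0.000978).

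A pair of nucleotide-binding resistance genes belonged to the set. AT4G16857 read 63 and 62 in gradient shoots, 64, 52 and 40 in 32 °C shoots, and 273 and 255 in 22 °C shoots (gradient against 22 °C, -2.06 ± 0.24, adjusted p = 0.000217). AT1G63350 averaged 224, 218 and 398 in those shoots, and its gradient roots were lower than its 32 °C roots (-1.06 ± 0.20, adjusted p = 0.00469). MC2, a metacaspase of cell death control, averaged 359, 303 and 178 in gradient, 32 °C and 22 °C roots and 123, 105 and 213 in the matching shoots. AT1G72060, a protease inhibitor, had the widest shoot ratio, 9.11, with 120 and 103 in gradient shoots, 81, 103 and 87 in 32 °C shoots, and 917 and 746 in 22 °C shoots (gradient against 22 °C, -2.88 ± 0.18, adjusted p = 1.44e-05). Its root values were 58, 55 and 91 in the gradient, 188, 370 and 112 at 32 °C and 134 at 22 °C, so its root ratio of 1.66 rested on 2 of 3 libraries.

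Cytoskeletal members were TRM19 and TRM26, of a family that recruits proteins to microtubules, and the kinesin gene KICP-02. TRM19 read 1045, 952 and 846 in gradient roots, 1825, 2274 and 1667 in 32 °C roots and 937 in the 22 °C root library (gradient against 32 °C, -1.01 ± 0.14, adjusted p = 0.0019). Gradient shoots held 1262 and 1454, 32 °C shoots 1436, 1561 and 1573, and 22 °C shoots 2701 and 3145. TRM26 did otherwise in roots, where the gradient mean of 777 was above the 32 °C mean of 611 and the 22 °C value of 399. FLP1, a flowering-promoting factor-like gene, and AT3G54510, of a dehydration-responsive family, were lower in gradient than in 32 °C roots, with log2 differences of -1.80 ± 0.35 (adjusted p = 0.00587) and -1.47 ± 0.16 (adjusted p = 0.000973). AT3G54510 read 94, 70 and 82 in gradient roots, 237, 218 and 226 in 32 °C roots and 102 in the 22 °C root library. Its shoots held 349 and 377 in the gradient, 312, 249 and 244 at 32 °C, and 448 and 442 at 22 °C.

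The set held 64 protein-coding genes and 3 RNA genes. AT3G06355 overlaps a ribosomal RNA gene on the same strand, so its values may include reads of that gene. It read 2024, 1780 and 1581 in gradient roots, 6300, 7850 and 5013 in 32 °C roots and 3187 in the 22 °C root library (gradient against 32 °C, -1.81 ± 0.17, adjusted p = 0.00068). Each gradient root library was below the 22 °C one. Gradient shoots held 3530 and 4298, 32 °C shoots 5493, 5076 and 4908, and 22 °C shoots 9098 and 9665. AT4G13495, which overlaps 3 annotated genes on its strand, averaged 95.3, 196 and 81.0 in gradient, 32 °C and 22 °C roots and 5499, 3982 and 6207 in the matching shoots. AT3G61198 averaged 194, 249 and 100 in those roots and 171, 145 and 349 in those shoots.

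Which organ held more of a transcript depended on the regime. By group means 26 members were higher in roots than in shoots in the gradient, 37 at 32 °C and 6 at 22 °C, and the median ratio of root to shoot was 0.748, 1.23 and 0.277. For 31 members the order of the organs differed between 32 °C and 22 °C, which the rule favours. The comparison of gradient roots with gradient shoots used no library that chose the members. It called 19 members higher and 31 lower in roots, where 39.4% of 22999 loci were higher and 33.5% lower, and 17 were not called. The median was -0.42 (log2) for members and 0.09 for all loci. Leaving out any 1 library except the 22 °C root library gave 17 to 19 members higher and 30 to 33 lower. Over all loci these shares were 34.5% to 39.6% and 29.0% to 34.0%.

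**Figure D5:**
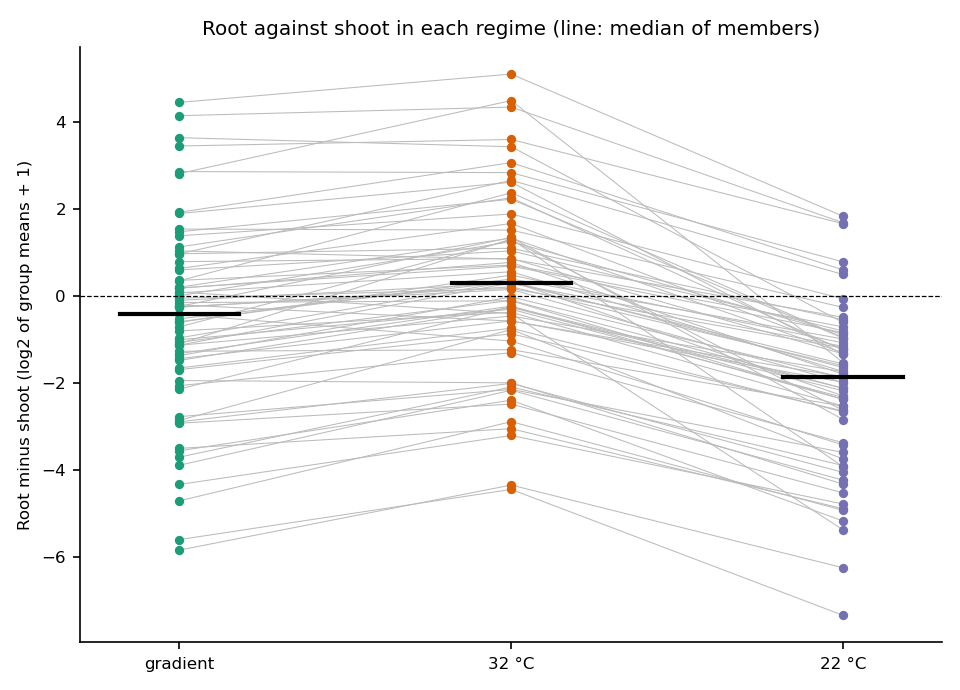
Each point is a member's root minus shoot difference (log2 of group means plus 1) in the gradient, at 32 °C and at 22 °C, with grey lines joining the same member and black bars at the median of the 67. Points above the dashed line were higher in roots, which held for 26, 37 and 6 members.

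On the root side of the gradient stood AT5G48430, with a log2 difference of 4.46 ± 0.37 (adjusted p = 2.42e-07), and AT2G22122, an uncharacterised protein with 4.09 ± 0.30 (adjusted p = 9.48e-08). AT2G22122 read 1286, 2063 and 2557 in gradient roots and 111 and 109 in gradient shoots. CDEF1 followed with 3.63 ± 0.23 (adjusted p = 1.69e-08), MLO12 with 3.45 ± 0.19 (adjusted p = 5.81e-09), AT5G05880 with 2.88 ± 0.17 (adjusted p = 1.26e-08) and AT2G36690 with 2.81 ± 0.28 (adjusted p = 1.28e-06). BZS1 and HMG1 were higher in roots by 1.92 ± 0.21 (adjusted p = 3.29e-06) and 0.77 ± 0.18 (adjusted p = 0.00187).

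At the shoot side stood AT4G13495, at -5.87 ± 0.22 (adjusted p = 2.56e-10), and AT2G45180, a lipid-transfer-like protein, at -5.62 ± 0.17 (adjusted p = 6.9e-11). AT2G45180 was the most abundant member of the shoots, with 57376 and 57802 in the gradient, 47243, 37524 and 41842 at 32 °C, and 86435 and 96019 at 22 °C. Its roots held 907, 1250 and 1416 in the gradient, 1953, 1711 and 2164 at 32 °C and 564 at 22 °C, without overlap between regimes. The root mean was 4.61% of the shoot mean at 32 °C and 0.619% at 22 °C, beside 0.244% and 0.255% for the green tissue genes. PHI-1, SCRM2, TCH4 and SCPL13, a serine carboxypeptidase-like gene, were lower in roots by differences of -4.71, -4.36, -3.83 and -3.71, with adjusted p-values of 2.18e-05, 1.28e-09, 4.41e-06 and 1.28e-07.

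Pathways listed for comparison held members at about the share seen in all loci. The lists took in 157 loci with both minimum levels, of which 1 (0.637%) was a member, beside 0.458% of all such loci. Of 16 lists, which covered flavonoid, anthocyanin, lignin and glucosinolate synthesis, sulfate, phosphate, nitrate and iron use, cell division, heat shock, auxin, jasmonate and immune responses and the clock, the clock list held that member, FKF1. Of 21 aliphatic glucosinolate genes measured, 17 had root ratios of at least 1.5, and in shoots 20 did so and 0 had ratios of at most 2/3. Of 12 heat shock genes, 9 had ratios of at least 1.5 in each organ and 2 were at most 2/3 in each.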

How the data were processed

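Polyadenylated RNA of roots and shoots was sequenced in 6 groups (2 organs, 3 regimes), per the labels' protocols. The deposited table holds a score per locus, namely the authors' normalised counts written as whole numbers. How they were normalised, and the genome build, annotation and strand setting, no source used here states. Of tools, STAR 2.5.3a, HISAT2 and DESeq2 appear in the submitters' processing notes, without their role. Read depth is unknown, so no counting intervals are given.

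Names came from RefSeq TAIR10.1 by locus code (32548 loci matched, 285 not, all 67 members matched, 32 with a symbol). Members, lists and named genes were chosen with earlier results of these data known. Genes outside the naming rule, such as PHYA, HMG1 and CLV1, were picked after their values were seen. The naming rule took members of listed pathways, the members with the widest changes in both organs, the widest gradient and organ differences, and those nearest the limits.

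Tests were limma's (version 3.58.1, R 4.3.3), applied to log2(value + 1) with a variance trend, 1 mean per regime and Benjamini-Hochberg adjustment over all loci at 10 or more in at least 2 distinct libraries. All 67 members passed this filter in both organs. Root and shoot were fitted separately, and jointly for organ comparisons. Since the values are not raw counts, no count model was used. The fits were also run on simulated data in which known loci had been raised in gradient roots or shoots. That simulation gave each locus the same spread in all groups and drew libraries independently, so it could not check those assumptions. TMM factors were computed within the organ (trims of 30% and 5%). Summaries used pandas 2.3.3 and plots matplotlib 3.10.9. No batch was given in the labels, and nothing there says what a replicate number marks. Same-numbered 32 °C roots and shoots deviated together from their group means (Pearson's r of 0.23, 0.32 and 0.36 across loci), so these may be paired by number. The main tests, organ comparisons included, treated all libraries as independent. A fit with the number as a block is among the alternatives.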

Additional observations from a re-analysis of the deposited data

Results flagged for a closer look

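The gradient minus 32 °C difference was lower in roots than in shoots for 32 members (interaction in limma, adjusted p below 0.05), which is why these results are listed. The 32 °C libraries also chose the members, high in roots and low in shoots, so part of this difference is set by the choice. By gene, the root minus shoot difference of the gradient effect was -0.98 for PHYA, -1.29 for ETR2, -1.25 for CRK28, -0.84 for TRM19, -1.70 for AT2G36690, -1.41 for AT3G06355 and -1.91 for AT3G54510 (log2). For FKF1 it was -1.71, with a log2 difference of -0.58 in roots and of 1.13 in shoots. No group held 4 distinct libraries, so single samples were not tested for standing apart.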

How the results depend on the processing

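A fold limit of 2 left 15 members, and TMM scaling gave 106, of which 39 were among the 67. In gradient against 22 °C roots, the members called higher numbered 11 with no filter (6.23% of loci) and 32 with identical columns kept (25.6%). With the replicate number as a block they numbered 6 (3.64%). In the same comparison 1 was called lower with TMM scaling (7.47%) and 1 with identical columns kept (14.4%). Against 32 °C roots, TMM scaling gave 23 lower (17.0%) and 2 higher (19.6%), and identical columns kept gave 1 higher (15.0%). In gradient against 32 °C shoots, 1 member was higher with a pseudocount of 8 (0.174%). There 1 was higher with TMM scaling (0.11%) and 12 with identical columns kept (2.18%). The cause of these shifts was not tested. Omissions of 1 library never included the 22 °C root library, which was the only library of its group. Against 22 °C roots these omissions gave 7 to 24 higher (4.59% to 18.6% of loci) and 0 to 1 lower (1.69% to 11.7%). Against 32 °C roots they gave 25 to 41 lower (17.4% to 35.6%) and 0 to 2 higher (7.36% to 13.4%). They gave 0 to 1 higher against 22 °C shoots (42.8% to 55.1%) and 0 to 1 higher in the organ difference (3.88% to 9.31%).

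Calls in every omission of 1 library held for 7 of the 19 members above 22 °C roots, 23 of the 43 below 32 °C roots, 42 of the 51 below 22 °C shoots, 47 of the 50 differing between gradient organs and 20 of the 32 with an organ difference. How often calls of all loci held was not counted. Of 58 single-gene results, none changed direction and 51 kept their side of the threshold under each alternative run. The losses of FKF1, CLV1, HMG1 and CDEF1 without single libraries or with TMM scaling stand beside their values. With no filter, calls were also lost for CLV1 against 32 °C roots (adjusted p = 0.0501) and for HMG1 (0.0610) and CDEF1 (0.0585) against 22 °C roots. The replicate block ended the calls against 22 °C roots of HMG1 (adjusted p = 0.0774), CDEF1 (0.0573), EXL3 (0.0594) and AT5G38940 (0.0817). The remaining change was in FKF1 in gradient against 32 °C shoots, which was called with identical columns kept.

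Over all loci, 2425 were higher and 1110 lower in gradient than in 22 °C roots, against 793 and 351 with the replicate block and 5573 and 3141 with identical columns kept. TMM scaling gave 4255 in place of 2747 higher and 3705 in place of 6571 lower than in 32 °C roots, 6321 in place of 11494 higher and 5997 in place of 2447 lower than in 22 °C shoots, and 2857 in place of 1850 higher and 2500 in place of 4410 lower in the organ difference. With identical columns kept that last count of higher loci was 2861. Against 32 °C shoots, 27 higher and 58 lower became 476 and 708 with identical columns kept, 3 and 9 with no filter and 0 and 0 with the block, and a pseudocount of 8 gave 89 lower.

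Within an organ the replicate numbers were not taken as pairing. Same-numbered gradient and 32 °C roots correlated at 0.02, -0.10 and -0.21 in their deviations from group means. Gradient and 32 °C shoots did so at 0.09 and 0.25, gradient and 22 °C shoots at 0.16, and 32 °C and 22 °C shoots at -0.18 and 0.02. Gradient shoots and 22 °C shoots held 2 libraries each, whose deviations mirror each other. Exchanging their numbers thus only reverses the sign of such a value. Same-numbered gradient roots and shoots correlated at 0.08 and 0.03, and only for 32 °C roots and shoots was each of 3 pairs over 0.1. With the block 38 members were called below 32 °C roots (24.0% of loci), 53 below 22 °C shoots (12.5%) and 32 lower in the organ difference (17.0%). In gradient roots 19 were then higher (39.0% of loci) and 31 lower (32.5%) than in gradient shoots. Among the single-gene results the block changed no call of an organ comparison.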
